A study of Brassica napus with 45 samples.

Results

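The PEG response of rapeseed (Brassica napus) leaves was compared between BnNAC038 overexpression line 2 and wild type, gene by gene, to ask whether each difference was a boosted, a blunted or a reversed response. The contrast was the PEG response of line 2 (PEG minus untreated) minus the same response in wild type, and it used 12 of the 45 libraries of the series. Of 100919 genes in the overexpression experiment, 45544 reached 1 TPM (a transcript level scaled for transcript length and library size) in at least 3 of these libraries and were tested. Line 2 gave 3 libraries with 20% PEG for 6 h and 3 untreated ones, and the wild type of the same experiment gave the same numbers. All seedlings grew in Hoagland's solution, and all RNA came from leaves. Overexpression line 1 with PEG and untreated, 3 libraries each, and a knockout line (BnNAC038-KO-1) with a wild type of its own experiment, 12 libraries with and without PEG, are used below for comparison. The library names of this other wild type begin with K407 and those of the overexpression wild type with WT. The titles call both wild type, and whether their backgrounds are the same cannot be told from these labels. The titles name line 2 as overexpressing BnNAC038, while the genotype field of its libraries gives a differently numbered NAC gene for each library, and the titles were followed. Each group has 3 libraries, numbered in their titles as biological replicates. Neither the labels nor the series text states the promoter of the transgene or whether each library came from separate plants or pools, so a p-value reflects the spread among the sequenced libraries alone.

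NAC proteins are a large plant-specific family of transcription factors with a conserved DNA-binding domain at one end and a variable regulatory end. Many members are switched on by drought, salt or the hormone abscisic acid (ABA), and several are known to set stress gene expression, stomatal water loss or leaf senescence. PEG is a polymer that does not readily enter cells and lowers the water potential around the roots, so it is used to imitate drought. Brassica napus combines the A genome of Brassica rapa and the C genome of Brassica oleracea, so most genes have a close relative on the other subgenome. The identifiers carry the chromosome (A01 to A10, C01 to C09) and a number running along it. The files pair no identifier with a gene name and none matched the annotation table at hand, so genes are given by identifier and no function is stated. BnNAC038 itself, leaf markers and stress gene lists were not analysed here for the same reason. Reads shared between near-identical copies may have been divided between them, which limits any single copy's value: 999 tested genes (2.19%) had exactly the same deposited values as another gene.

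Between 38999 and 41754 genes reached 1 TPM in a library. The lowest correlation across genes between libraries of a group was 0.982 for line 2 with PEG, 0.977 for untreated line 2, 0.954 for wild type with PEG and 0.978 for untreated wild type. The first principal component, 76.6% of the variance, separated PEG from untreated libraries. On it, line 2 with PEG stood at -135.5, -129.7 and -134.1, and wild type with PEG at -81.6, -60.7 and -126.0. Wild type PEG replicates 1 and 2 had thus moved less far from the untreated libraries than replicate 3 and than any line 2 PEG library. The untreated libraries of line 2 stood at 95.7, 95.3 and 116.0, and those of wild type at 125.8, 109.3 and 125.5. Differences of named genes are therefore also given without these wild type libraries. That fit leaves replicate 3 as the only wild type PEG library.

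PEG changed most of the leaf transcriptome in both genotypes, and in such bulk RNA fewer cells of a type and less RNA per cell cannot be told apart. In line 2, 28831 genes (63.3% of those tested) were called, 17030 higher (37.4%) and 11801 lower (25.9%) with PEG, and in wild type 27269 (59.9%), 17348 higher (38.1%) and 9921 lower (21.8%). With 1 library left out, the calls numbered 25817 to 29206 in line 2 and 23315 to 27485 in wild type. Here and below, called means a Benjamini-Hochberg adjusted p under 0.05 in limma, and responses are differences of log2(TPM + 1), a scale that understates changes of weakly expressed genes. Across the 45544 genes, the line 2 and wild type responses correlated at Pearson r = 0.929, a description across genes that are not independent of each other. The median response over all genes was 0.15 in line 2 and 0.21 in wild type.

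The response differed between the genotypes in 210 genes, 0.461% of those tested, against 5650 at an unadjusted p under 0.05. The line 2 response was the higher in 116 (0.255%) and the lower in 94 (0.206%), and in 187 the difference was at least 2-fold. This balance did not hold in every fit: without wild type PEG replicate 3, 387 were higher and 687 lower, with all 27 libraries of the experiment in the fit 308 and 429, and with array quality weights 251 and 330. Sizes of the difference ran from 0.77 to 5.68 on the log2 scale with a median of 1.43, against a median size of 0.21 over all tested genes. The 210 genes had 203 distinct sets of values. The difference was a boosted response in 143 genes (0.314% of those tested), meaning a called line 2 response larger than that of wild type. It was a blunted response in 55 genes (0.121%), meaning a called wild type response larger than that of line 2, and a reversed one in 12 (0.0263%), meaning called responses of opposite direction.

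The number of calls and the balance of forms moved with single libraries. Without wild type PEG replicate 3 there were 1074 calls, which included 204 of the 210, with 915 boosted, 111 blunted and 48 reversed. Leaving out wild type PEG replicates 1 and 2 together leaves 1 wild type PEG library. In that fit blunted calls outnumbered boosted ones. With 1 library in a group, it cannot decide whether the excess of boosted over blunted responses holds, and its calls are not used here. There were 36, 45 and 72 calls without line 2 PEG replicate 1, 2 or 3, and 73 and 63 without untreated line 2 replicate 1 or 2. Without wild type PEG replicate 3 the 915 boosted responses were 333 raised and 582 lowered by PEG, the 111 blunted ones 71 and 40, and the 48 reversed ones 34 raised and 14 lowered in wild type. Calls numbered 95 and 131 without wild type PEG replicate 1 or 2, and 80, 83 and 130 without untreated wild type replicate 1, 2 or 3. Every one of the 210 genes that was still tested kept its direction in each of these fits. The fits reuse most of the libraries in which the genes were chosen, so a change of direction was unlikely from the start.

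**Figure D1:**
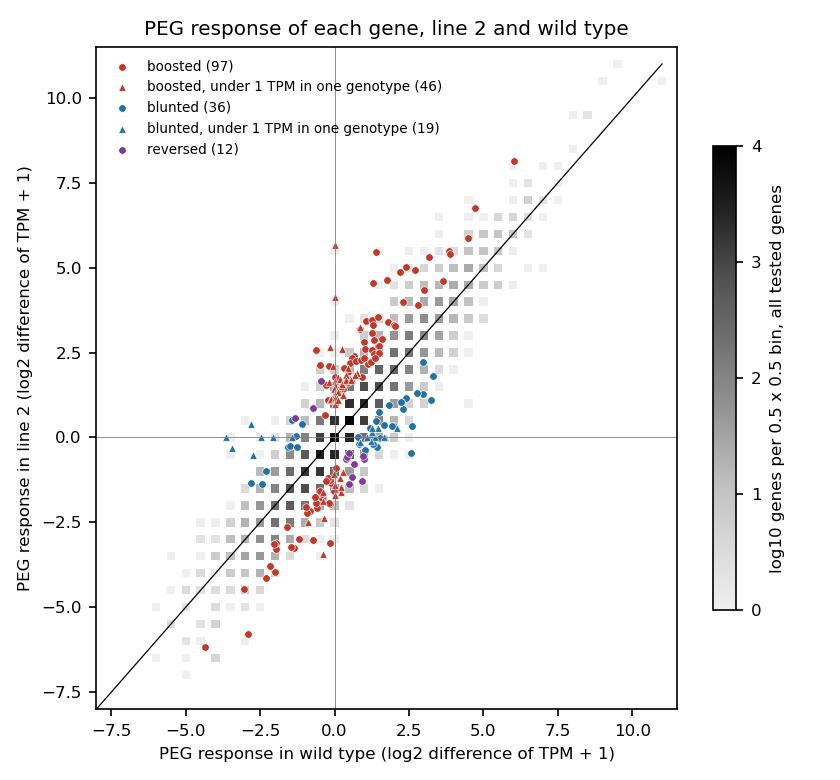
PEG response of each tested gene in line 2 (vertical) against wild type (horizontal), both as log2 differences of TPM + 1, with all 45544 genes as grey bins on a log10 colour scale and the 210 called genes as coloured points. Boosted genes (143) lie on the far side of the diagonal from zero, blunted genes (55, with line 2 responses of -1.38 to 2.21) lie between the diagonal and the horizontal zero line or close to that line, and triangles mark the 46 boosted and 19 blunted genes with a mean under 1 TPM in both conditions in one genotype.

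Genes that PEG raised more strongly in line 2 numbered 97 of the 210, and 13 to 333 with 1 library left out. Both responses were called in 62 of them, and in 35 only that of line 2 was. The median TPM of the group in each library was 8.97, 9.50 and 8.93 in line 2 with PEG and 0.754, 0.614 and 0.690 in untreated line 2, against 2.15, 1.77 and 2.71 in wild type with PEG and 0.349, 0.393 and 0.354 in untreated wild type. The levels thus stood well apart with PEG and were low in all untreated libraries. The gap with PEG partly follows from how these genes were chosen. A genotype difference was called with PEG only in 69 of the 97, in both conditions in 20 and in untreated leaves only in 8. Over all tested genes, line 2 and wild type differed with PEG in 3460 (7.6%; line 2 higher in 3.75% and lower in 3.84%) and in untreated leaves in 2525 (5.54%; higher in 3.5% and lower in 2.05%).

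BnaA02G0412100ZS had the largest boost among genes present in both genotypes. Its level was 76.3, 86.9 and 116 TPM in line 2 with PEG and 2.02, 0 and 2.08 TPM in untreated line 2, against 2.81, 1.47 and 5.28 TPM in wild type with PEG and 0, 1.31 and 0.418 TPM in untreated wild type. All 3 line 2 PEG libraries lay far above every other library, and the untreated groups overlapped. Genes were named only if line 2 and wild type did not overlap in at least 1 condition. Such separation, here and below, therefore partly follows from the choice. Over all tested genes it was seen in 39.6%, with PEG in 25.1% and untreated in 23.2%. The responses were 5.46 in line 2 and 1.39 in wild type, a difference of 4.07 (SE 0.640, adjusted p = 0.0231 in limma). That p was 0.054 to 0.0657 without any one line 2 PEG library, wild type PEG replicate 1 or untreated wild type replicate 2. Without wild type PEG replicates 1 and 2, which leaves 1 library in that group, the difference was 3.38.

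BnaA02G0359700ZS stood at 22.8, 29.4 and 17.5 TPM in line 2 with PEG and at 0.0426, 0 and 0 TPM in untreated line 2. Wild type had 1.18, 1.12 and 2.43 TPM with PEG and 0.0227, 0.0243 and 0.0205 TPM untreated. The gene was close to 0 in every untreated library, and the PEG libraries of the genotypes did not overlap. Its response of 4.55 in line 2 against 1.30 in wild type differed by 3.25 (SE 0.285, adjusted p = 0.000806 in limma), and this call held without any single library.

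Genes that PEG lowered more strongly in line 2 numbered 46, and 7 to 582 with 1 library left out. They outnumbered those raised more strongly without wild type PEG replicate 3, with all 27 libraries in the fit (265 lowered, 239 raised) and with array quality weights (210 lowered, 205 raised). In 25 both responses were called and in 21 only that of line 2. Their median TPM was 1.76, 1.78 and 1.98 in line 2 with PEG and 13.9, 15.64 and 13.03 in untreated line 2, against 2.52, 2.83 and 2.18 in wild type with PEG and 7.711, 5.602 and 5.704 in untreated wild type. Unlike in the group raised by PEG, the untreated levels differed most: the genotypes differed in untreated leaves only in 23 of the 46, with PEG only in 15 and in both in 8. In all 31 with an untreated difference, untreated line 2 was the higher. With PEG, line 2 was called lower in 20 and higher in 3. The difference of responses is the genotype difference with PEG minus that in untreated leaves. These directions therefore partly follow from how the genes were chosen.

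BnaC06G0022100ZS was lost in line 2 with PEG, at 0.859, 0 and 0.757 TPM, while untreated line 2 had 9.18, 14.71 and 11.96 TPM. In wild type it had 4.99, 7.02 and 5.22 TPM with PEG and 9.24, 5.35 and 5.44 TPM untreated. The wild type groups overlapped, and every line 2 PEG library was below every other library. The response was -3.10 in line 2 and -0.16 in wild type, a difference of -2.94 (SE 0.372, adjusted p = 0.00814 in limma).

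BnaA03G0438900ZS was abundant in untreated leaves of both genotypes. Line 2 had 4.103, 6.403 and 6.429 TPM with PEG and 432, 393 and 270 TPM untreated. Wild type had 44.3, 55.9 and 17.6 TPM with PEG and 243, 330 and 242 TPM untreated. The fall was seen in both, and the PEG levels of line 2 were all below those of wild type, with wild type replicate 3 nearest to them. The responses were -5.78 in line 2 and -2.89 in wild type and differed by -2.88 (SE 0.490, adjusted p = 0.0306 in limma). The call was lost without some single libraries, with adjusted p between 0.0545 and 0.102 in limma. These were any line 2 PEG library, untreated line 2 replicate 1 or 2, wild type PEG replicate 1 and any untreated wild type library. Without wild type PEG replicates 1 and 2, which leaves 1 library in that group, the difference was -1.91.

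**Figure D2:**
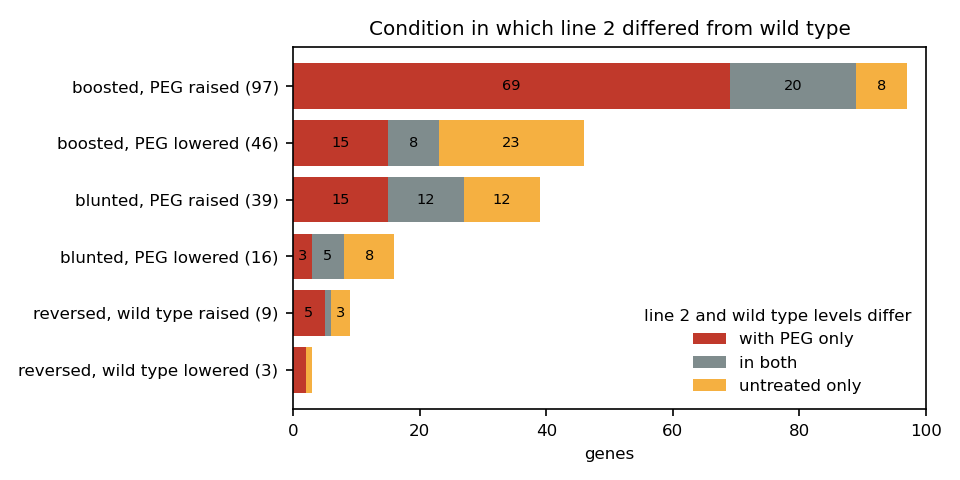
Number of called genes of each form and direction, split by the condition in which the levels of line 2 and wild type differed (called with PEG only, in both conditions, or untreated only). Of 97 genes boosted and raised by PEG, 69 differed with PEG only, while 23 of 46 boosted and lowered genes and 8 of 16 blunted and lowered genes differed in untreated leaves only.

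A smaller response in line 2 where PEG raised the gene in wild type was found in 39 genes, and in 4 to 71 with 1 library left out. Both responses were called in 12, and only that of wild type in 27. The median TPM was 7.30, 7.12 and 7.83 in line 2 with PEG and 5.49, 6.78 and 6.55 in untreated line 2, against 17.2, 15.29 and 20.99 in wild type with PEG and 3.83, 4.40 and 4.22 in untreated wild type. The line 2 libraries therefore lay between the untreated and the PEG libraries of wild type in both conditions. Genotypes differed with PEG only in 15 genes, in untreated leaves only in 12 and in both in 12. Untreated line 2 was called higher than untreated wild type in 17 and lower in 7. With PEG, line 2 was called lower in 24 and higher in 3. Both directions partly follow from how the genes were chosen.

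BnaC09G0253600ZS was one of those already high in untreated line 2, at 59.6, 55.0 and 28.7 TPM, with 32.2, 30.0 and 36.9 TPM in line 2 with PEG. Wild type had 15.4, 8.88 and 12.2 TPM with PEG and 2.15, 0.502 and 1.25 TPM untreated. Every line 2 library was above every wild type library, and only wild type showed a called response. The response was -0.46 in line 2 (adjusted p = 0.204 in limma) and 2.55 in wild type, a difference of -3.01 (SE 0.427, adjusted p = 0.0137 in limma). Without line 2 PEG replicate 1 or 2 the adjusted p was 0.0553 or 0.0511 in limma. Without wild type PEG replicates 1 and 2, which leaves 1 library in that group, the difference was -3.05.

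In BnaA06G0385600ZS the PEG libraries overlapped, with 4.87, 10.6 and 5.28 TPM in line 2 and 13.4, 7.94 and 8.83 TPM in wild type. The untreated libraries stood apart, with 4.09, 6.78 and 4.25 TPM in line 2 and 0.474, 1.03 and 0.874 TPM in wild type. The responses of 0.35 in line 2 and 2.61 in wild type differed by -2.26 (SE 0.386, adjusted p = 0.0311 in limma). The adjusted p was 0.0569 to 0.101 without any one of line 2 PEG replicates 1 and 3, untreated line 2 replicates 1 and 2, wild type PEG replicate 1 and the untreated wild type libraries.

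Among genes that PEG lowered in wild type, 16 had a blunted response in line 2, with both responses called in 4. This number was 5 to 40 with 1 library left out. Their median TPM was 0.202, 0.257 and 0.0489 in line 2 with PEG and 1.56, 1.11 and 1.49 in untreated line 2, against 0.901, 0.861 and 0.813 in wild type with PEG and 8.94, 9.11 and 10.5 in untreated wild type. Low levels before treatment were common here: untreated line 2 was called lower than untreated wild type in 13 of the 16 and higher in none. The untreated libraries enter the difference of responses, so this direction partly follows from how the genes were chosen. Of the 16, 7 had a mean under 1 TPM in line 2 in both conditions.

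BnaA02G0338000ZS had 210, 141 and 150 TPM in line 2 with PEG and 129, 80.8 and 144 TPM in untreated line 2. Wild type had 145, 88.2 and 134 TPM with PEG and 322, 381 and 269 TPM untreated, so the untreated wild type libraries alone stood apart from the rest. The response was 0.51 in line 2 (adjusted p = 0.0887 in limma) and -1.42 in wild type, a difference of 1.93 (SE 0.352, adjusted p = 0.0399 in limma). With 1 library left out, the call held only without untreated line 2 replicate 3 or wild type PEG replicate 3, and leaving out any of the other 10 gave an adjusted p of 0.0538 to 0.112.

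BnaA03G0393500ZS was expressed at 41.5, 46.8 and 32.3 TPM in line 2 with PEG and 30.7, 31.0 and 28.5 TPM in untreated line 2, against 22.8, 21.6 and 15.8 TPM in wild type with PEG and 55.9, 41.2 and 36.0 TPM in untreated wild type. Neither the PEG nor the untreated libraries of the genotypes overlapped. Its responses of 0.39 in line 2 and -1.10 in wild type differed by 1.5 (SE 0.263, adjusted p = 0.0355 in limma). The adjusted p was 0.054 to 0.107 without any one of line 2 PEG replicates 1 and 2, the untreated line 2 libraries, wild type PEG replicates 1 and 2 and untreated wild type replicates 1 and 2.

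Reversed responses were few. In 9 genes (2 to 34 with 1 library left out) PEG raised the level in wild type and lowered it in line 2, with a median response of -0.63 in line 2 and 0.58 in wild type. In 3 genes (1 to 14) it was lowered in wild type and raised in line 2, with medians of 0.88 in line 2 and -0.73 in wild type. The genotypes differed with PEG only in 5 of the 9 and 2 of the 3.

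BnaC02G0295900ZS, a weakly expressed gene, had 2.30, 2.19 and 1.49 TPM in line 2 with PEG and 8.26, 6.34 and 4.60 TPM in untreated line 2, against 1.21, 1.79 and 0.871 TPM in wild type with PEG and 0.724, 0 and 0 TPM in untreated wild type. Untreated line 2 was above all other libraries. The responses of -1.29 in line 2 and 0.91 in wild type differed by -2.20 (SE 0.351, adjusted p = 0.0239 in limma). The adjusted p was 0.0516 to 0.0669 without any one of the line 2 PEG libraries, untreated line 2 replicates 1 and 2, wild type PEG replicate 1 and untreated wild type replicates 2 and 3.

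In BnaA08G0022500ZS the order of the genotypes was turned round by PEG. With PEG it had 6.999, 6.897 and 8.616 TPM in line 2 and 16.8, 13.1 and 16.9 TPM in wild type. Untreated, it had 25.1, 22.4 and 16.3 TPM in line 2 and 9.87, 12.3 and 10.2 TPM in wild type. The genotypes overlapped in neither condition. The responses were -1.37 in line 2 and 0.49 in wild type, a difference of -1.86 (SE 0.235, adjusted p = 0.00814 in limma) that was called without any single library.

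The opposite order held for BnaA03G0153800ZS, with 10.5, 8.58 and 6.95 TPM in line 2 with PEG and 1.86, 1.71 and 2.52 TPM in untreated line 2. Wild type had 2.25, 1.16 and 2.42 TPM with PEG and 3.26, 2.93 and 2.80 TPM untreated. Line 2 with PEG lay above every other library. The genotypes did not overlap in untreated leaves either, where wild type was the higher. The responses were 1.67 in line 2 and -0.47 in wild type (adjusted p = 0.0499 in limma), a difference of 2.14 (SE 0.270, adjusted p = 0.00814 in limma).

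BnaA06G0161600ZS was at 33.1, 25.8 and 27.2 TPM in line 2 with PEG and at 23.7, 16.2 and 17.0 TPM in untreated line 2, against 5.82, 6.97 and 7.54 TPM in wild type with PEG and 14.8, 21.1 and 19.8 TPM in untreated wild type. The untreated groups overlapped, and the PEG groups lay on either side of them. A response of 0.59 in line 2 and of -1.32 in wild type gave a difference of 1.91 (SE 0.247, adjusted p = 0.00898 in limma).

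The fit without wild type PEG replicates 1 and 2 leaves 1 library in that group and was not used for calls. In it the 12 genes named so far kept the sign of their difference. Of those not given above, BnaA02G0359700ZS had 2.80, BnaA08G0022500ZS -1.98, BnaA03G0153800ZS 1.89, BnaC06G0022100ZS -2.84 and BnaA03G0393500ZS 1.81. BnaA06G0161600ZS had 1.77, BnaA06G0385600ZS -2.12, BnaA02G0338000ZS 1.77 and BnaC02G0295900ZS -1.93. With a pseudocount of 0.1 in place of 1, calls were lost for BnaA02G0412100ZS, BnaC06G0022100ZS, BnaA03G0438900ZS, BnaA02G0338000ZS, BnaA03G0393500ZS and BnaC02G0295900ZS, with adjusted p of 0.0549 to 0.344 in limma. Without a filter on low values these calls other than that of BnaC06G0022100ZS, and that of BnaA06G0385600ZS, were lost with adjusted p of 0.0533 to 0.0817 in limma.

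**Figure D3:**
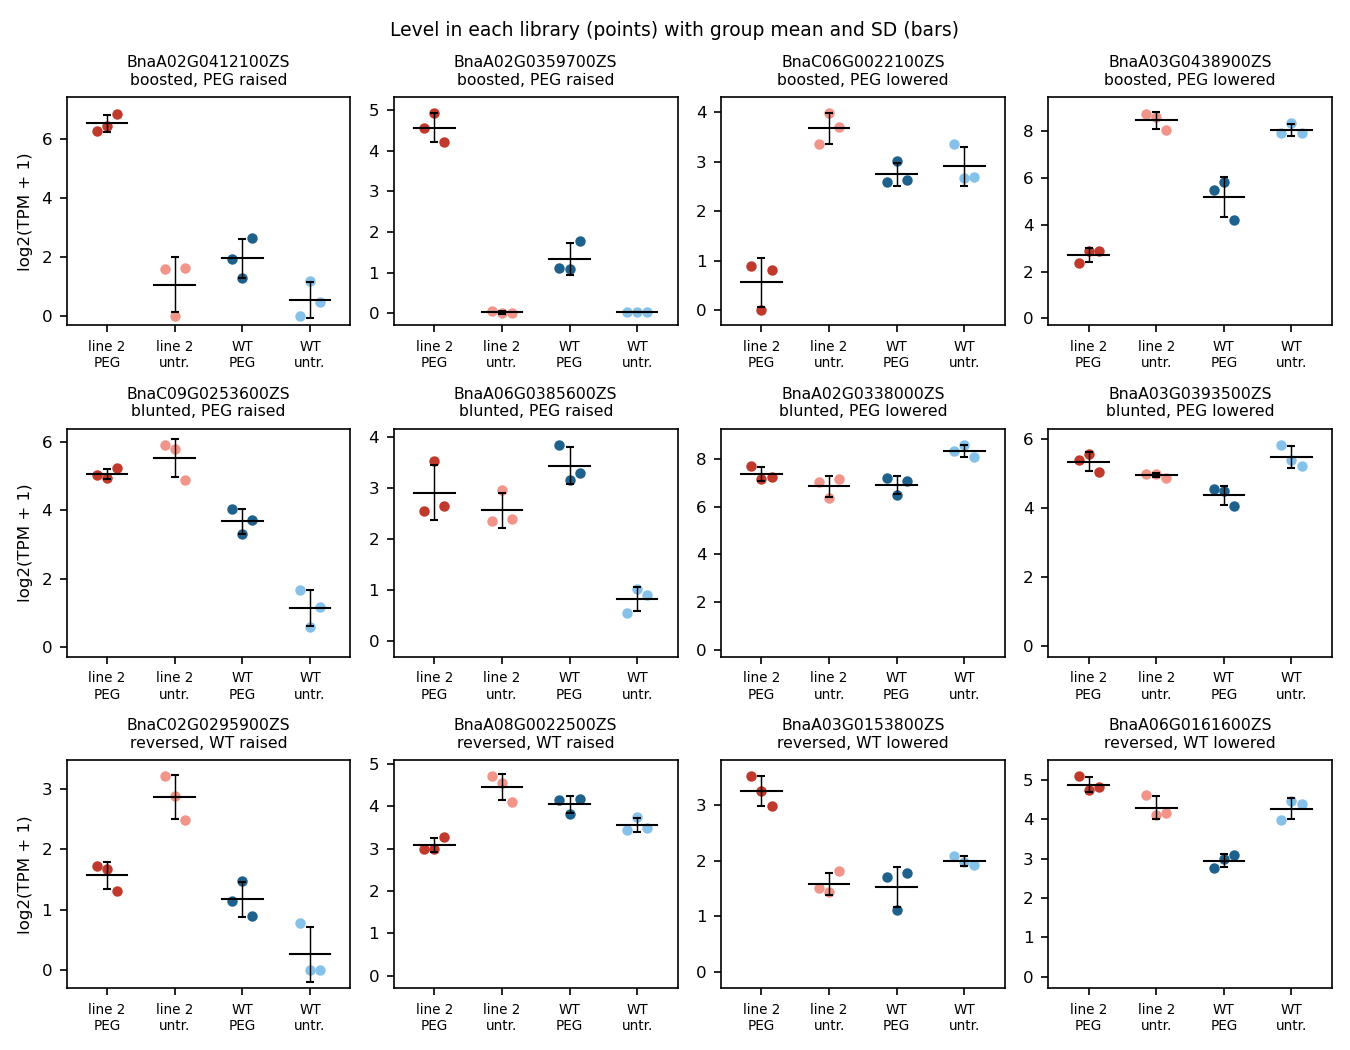
Level of the 12 genes named for each form, as log2(TPM + 1), in each library (points), with the group mean and SD (bars, n = 3), in line 2 with PEG, untreated line 2, wild type with PEG and untreated wild type. In the boosted genes line 2 with PEG stands apart from the other groups, while in BnaC09G0253600ZS and BnaA06G0385600ZS untreated wild type is the group that stands apart.

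Some of the called genes were nearly silent in one genotype. In 46 of the 210, all of the boosted form, the mean was under 1 TPM in wild type with and without PEG, so the response of line 2 had no wild type level to be set against. PEG raised 33 of them in line 2 and lowered 13. Their summed TPM was 322, 349 and 326 in line 2 with PEG and 492, 588 and 617 in untreated line 2, against 10.03, 10.12 and 14.69 in wild type with PEG and 7.43, 9.34 and 7.13 in untreated wild type. The gap between line 2 and wild type follows from how these genes were chosen. In line 1, which took no part in that choice, they summed to 281, 267 and 298 with PEG and to 591, 571 and 579 untreated, and 7 of the 46 had a mean under 1 TPM there in both conditions. Over all tested genes, 1666 had a mean under 1 TPM in wild type in both conditions.

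The 2 largest differences of all were of this kind. BnaA03G0111500ZS had 51.6, 35.7 and 68.5 TPM in line 2 with PEG and was listed at 0 in the 3 untreated line 2 libraries and in all 6 wild type libraries. Line 1 with PEG had 26.5, 29.0 and 20.9 TPM. BnaA06G0278000ZS had 19.4, 20.4 and 16.9 TPM in line 2 with PEG and 0.0666, 0.309 and 0 TPM in untreated line 2, and it was listed at 0 in all 6 wild type libraries. Line 1 with PEG again had a similar level, 18.7, 16.7 and 15.1 TPM. On the log2(TPM + 1) scale the differences were 5.68 (SE 0.257) and 4.15 (SE 0.181), both with an adjusted p of 9.32e-07 in limma, and no fold is given against a group at 0. Of the libraries in the contrast, both genes reached 1 TPM only in those of line 2 with PEG. They thus passed the filter only through the group where they were high, and their p-values are a description.

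The converse held for 19 blunted genes, with a mean under 1 TPM in line 2 in both conditions, of which PEG raised 12 and lowered 7 in wild type. Over all tested genes, 1554 had such a mean in line 2. The summed TPM of the 19 genes was 1.93, 2.33 and 1.04 in line 2 with PEG and 1.43, 0.465 and 2.66 in untreated line 2. In wild type it was 110, 114 and 134 with PEG and 142, 131 and 140 untreated. In 18 of the 19 the mean was also under 1 TPM in line 1. BnaC01G0226400ZS had 0, 0.291 and 0 TPM in line 2 with PEG and 0, 0 and 0.259 TPM in untreated line 2, against 1.91, 0.719 and 0 TPM in wild type with PEG and 19.9, 20.3 and 21.3 TPM in untreated wild type. The difference was 3.66 (SE 0.411, adjusted p = 0.0049 in limma). In BnaC03G0476400ZS the values were 0.862, 0.504 and 0 TPM in line 2 with PEG and 0.225, 0 and 0 TPM in untreated line 2, against 0.824, 0.609 and 3.09 TPM in wild type with PEG and 17.7, 13.2 and 14.9 TPM in untreated wild type. Its difference was 3.22 (SE 0.445, adjusted p = 0.013 in limma). With a pseudocount of 0.1 the adjusted p in limma was 0.149 for BnaC01G0226400ZS and 0.113 for BnaC03G0476400ZS. Both genes were thus near 0 in line 2 before treatment, and both passed the filter only through wild type libraries. Without the genes under 1 TPM in both conditions in one genotype, a fit of the remaining genes called 68, with 53 boosted, 8 blunted and 7 reversed.

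The boosted responses of line 2 were also large in line 1, whose libraries took no part in the choice of these genes. Over the 97 genes boosted and raised, the median response was 2.27 in line 2, 2.03 in line 1 and 0.64 in wild type, and it was above 0 in line 1 in 96. The line 1 fit tested 88 of them and called 86 higher with PEG. A gene silent in wild type passed its filter only through line 1, so this count is a description. PEG in line 1 called 66.9% of all genes tested, 41.4% higher and 25.6% lower. Over the 46 boosted and lowered, the median was -1.95 in line 2, -1.57 in line 1 and -0.42 in wild type, and it was below 0 in line 1 in 45. For all blunted genes the medians were 0.27 in line 2, 0.45 in line 1 and 1.67 in wild type where PEG raised the gene, and -0.13 in line 2, -0.54 in line 1 and -2.18 in wild type where PEG lowered it. The reversed genes had medians of -0.63 in line 2, -0.22 in line 1 and 0.58 in wild type, and of 0.88 in line 2, 0.57 in line 1 and -0.73 in wild type. The line 2 and wild type values of these genes follow from how they were chosen, and the line 1 values do not. The gap between line 1 and wild type partly follows from the choice, through its wild type side.

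The difference of response between the lines was tested directly, without wild type libraries. Of 45313 genes, limma called 1 (0.00221%), against 3438 at an unadjusted p under 0.05. Of the 210 genes, 191 were tested there and 0 were called by limma, with 70 at an unadjusted p under 0.05 and a smallest adjusted p of 0.533. Their median difference, line 2 minus line 1, was 0.05, but this pools forms of opposite direction. It was 0.40 for genes boosted and raised and -0.43 for those boosted and lowered. Genes blunted and raised had -0.33 (27 tested), and those blunted and lowered 0.60 (9 tested). Reversed genes had -0.37 where PEG raised wild type and 0.31 where it lowered it. Line 2 values took part in the choice of these genes, so these signs partly follow from it. The lack of calls does not show that the lines respond alike. The called gene, BnaC05G0203000ZS, which was named after its values were seen, had 3.79, 2.73 and 2.11 TPM in line 2 with PEG and 2.43, 3.41 and 2.15 TPM in untreated line 2. Line 1 had 6.58, 7.3 and 9.46 TPM with PEG and was listed at 0 in the 3 untreated libraries. The difference of responses was -3.05 (SE 0.253, adjusted p = 0.00249 in limma). Against the same wild type libraries, the line 1 response differed in 104 of 45508 genes (0.229%). Of the 210 genes, 197 were tested there and 56 were among those called. Both comparisons share the wild type libraries, so these values only stand side by side.

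**Figure D4:**
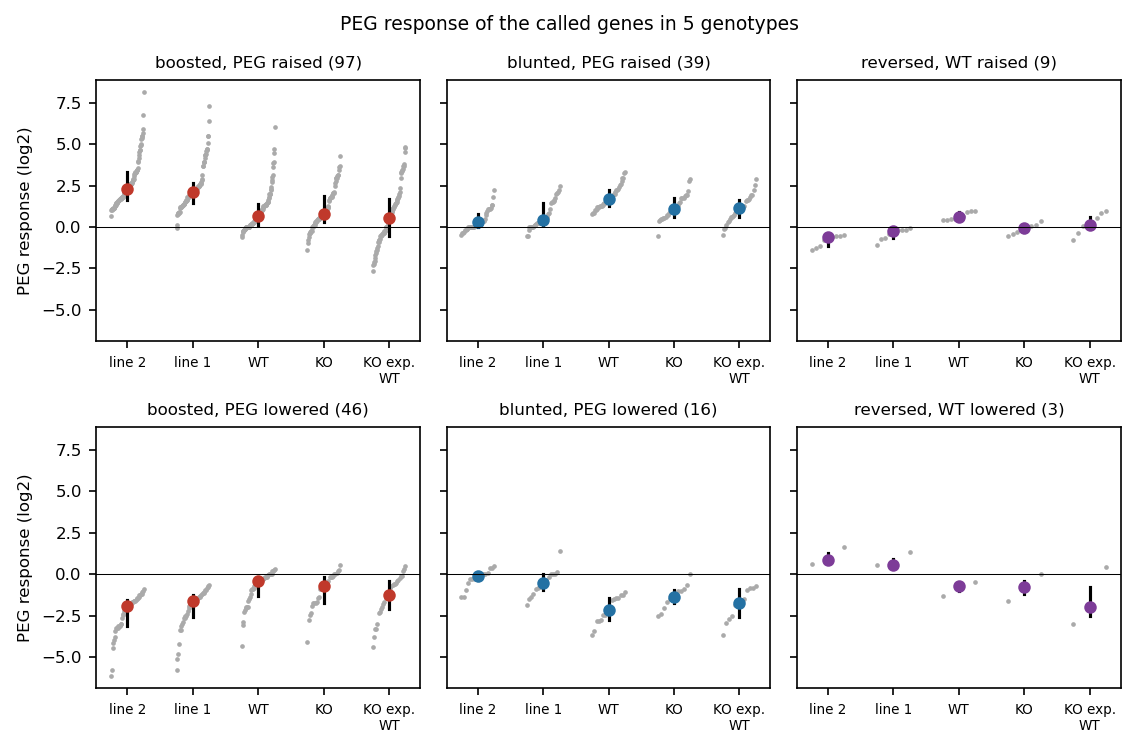
PEG response, as a log2 difference, of the called genes of each form (grey points, sorted within each column) with the median (coloured point) and the interquartile range (bar), in line 2, line 1, wild type, the knockout and the wild type of the knockout experiment, for the genes tested in each. Line 1 medians lie on the same side of wild type as those of line 2 in all 6 panels, for example 2.27 in line 2, 2.08 in line 1 (88 tested) and 0.64 in wild type for genes boosted and raised. The wild type values took part in the choice of these genes, so this side partly follows from the choice.

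The knockout experiment held the called genes in a further set of libraries, on a normalized scale of its own. It tested 156 of the 210. For genes boosted and raised in line 2, the median response was 0.77 in the knockout and 0.55 in its wild type (74 genes), where 39 were called higher and 17 lower. PEG called 58.4% of all genes in that wild type, 32.7% higher and 25.7% lower. For genes boosted and lowered it was -0.70 in the knockout and -1.23 in its wild type (29 genes, 23 called lower). Genes blunted and raised had medians of 1.09 in the knockout and 1.11 in its wild type (30 genes, 24 called higher), and genes blunted and lowered had -1.39 and -1.77 (12 genes, 11 called lower). In this other wild type, 27 of the 30 and 12 of the 12 had the sign seen in the wild type of the overexpression experiment. The same share over all genes was not counted, so these counts do not set the blunted genes apart. Of the 12 genes named for a form, 10 were tested there, and in 7 the responses of the wild types differed by more than 1 on the log2 scale. This was not tested, because the experiments were normalized apart. The named genes were chosen in part by their response in the overexpression wild type, so such gaps partly follow from the choice. No share over all genes is given for comparison. BnaA02G0412100ZS and BnaA02G0359700ZS had responses of 3.41 and 3.66 in the wild type of the knockout experiment, against 1.39 and 1.30 in that of the overexpression experiment, and BnaA03G0438900ZS had -4.39 against -2.89. In the same order of wild types, BnaC06G0022100ZS had -1.23 against -0.16, BnaA06G0385600ZS 0.66 against 2.61, BnaA02G0338000ZS -2.96 against -1.42 and BnaA06G0161600ZS -2.99 against -1.32.

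The knockout's own PEG response differed from that of its wild type in 64 of 42365 genes (0.151%), of which 5 were among the 156 (3.21% of them, and 7.81% of the 64). All 5 were boosted in line 2 and are named because they are few, after their values were seen. In 4 the difference had the same sign in the knockout as in line 2: BnaA06G0278000ZS (3.35 in the knockout and 4.15 in line 2), BnaC05G0526900ZS (2.96 and 2.82), BnaA02G0409800ZS (2.104 and 1.657) and BnaC05G0503700ZS (1.498 and 1.075). The simple responses behind these differences were not alike. In the knockout experiment BnaC05G0526900ZS had a response of 0.85 in the knockout and -2.12 in its wild type, BnaA02G0409800ZS 0.55 and -1.56, and BnaC05G0503700ZS 0.74 and -0.75. In the overexpression experiment they had 2.65 in line 2 and -0.17 in wild type, 1.66 and 0, and 1.17 and 0.09. BnaA06G0278000ZS, with 2.96 in the knockout and -0.39 in its wild type, averaged 9.41 ± 1.56 in the knockout with PEG and 0.350 ± 0.287 in the untreated knockout, against 0.0260 ± 0.0228 and 0.368 ± 0.276 in its wild type (normalized values, SD, n = 3 libraries a group). In BnaA02G0407700ZS the signs were opposite, 3.81 in the knockout and -1.41 in line 2. There it was listed at 0 in every knockout library, and its wild type averaged 0.0504 ± 0.0873 with PEG and 15.4 ± 9.54 untreated.

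To see the size of the response without choosing genes in the compared libraries, lists were taken from the wild type of the knockout experiment, with genes called there at 2-fold or more. Over the 3905 genes raised there, the median response was 1.48 in line 2 and 1.47 in wild type, the line 2 response was the larger in 50.8%, and the test of the difference called 30 higher and 18 lower in line 2 (1.23% of the list, against 0.461% of all genes). Over the 4113 genes lowered there, the medians were -1.12 in line 2 and -1.03 in wild type, line 2 fell further in 66.3%, and 22 genes were called higher and 15 lower (0.9%). The mean level of the raised list, minus the mean of the untreated libraries of the same genotype, was 1.73, 1.72 and 1.77 in the line 2 PEG libraries and 1.72, 1.51 and 1.96 in those of wild type. The lowered list gave -1.10, -1.03 and -1.18 for line 2, against -1.01, -0.84 and -1.18 for wild type. The line 2 libraries lay inside or at the edge of the wild type range for both lists, and wild type PEG replicate 2 had the smallest response of the 6 in each.

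**Figure D5:**
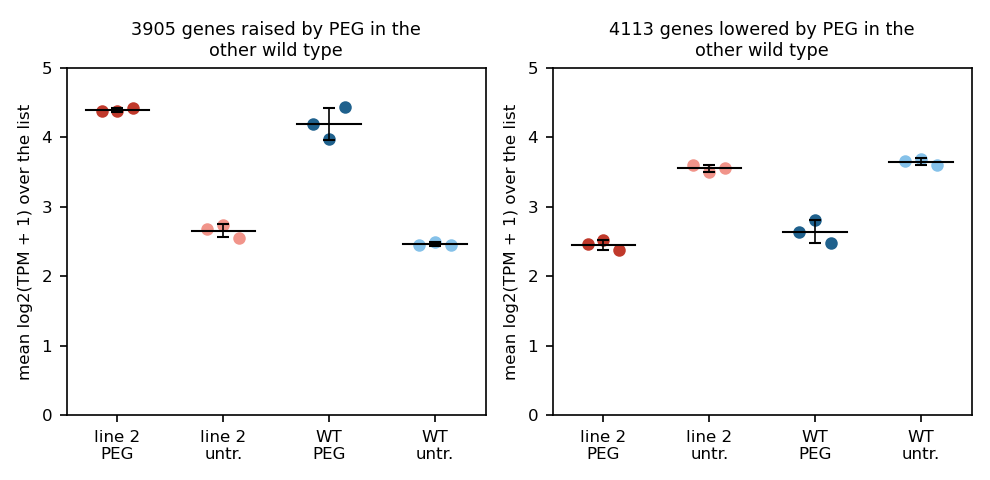
Mean log2(TPM + 1) over the 3905 genes raised and the 4113 genes lowered by PEG in the wild type of the knockout experiment, in each library (points), with group mean and SD (bars, n = 3), in line 2 with PEG, untreated line 2, wild type with PEG and untreated wild type. The raised list averaged 4.40 ± 0.025 in line 2 with PEG and 4.20 ± 0.23 in wild type with PEG, and the wild type PEG libraries spread more widely than those of line 2.

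The called genes lay on all 19 chromosomes. The A subgenome held 106 of 20622 tested genes (0.514%), the C subgenome 99 of 24257 (0.408%) and unplaced scaffolds 5 of 665 (0.752%). By chromosome the share was highest on A02 (17 of 1879, 0.905%) and A04 (13 of 1439, 0.903%) and lowest on C08 (4 of 2594, 0.154%). In runs of 50 neighbouring tested genes, the densest held 7 called genes, on A02 between running numbers 4018 and 4123. That run holds BnaA02G0412100ZS, BnaA02G0407700ZS and BnaA02G0409800ZS, and 20 of its 50 genes also differed between line 2 and wild type in untreated leaves. No other run apart from it held more than 3 called genes. Runs in which at least 20% of genes differed between the genotypes in untreated leaves, a limit chosen after the data were seen, held 4.50% of the tested genes on chromosomes and 41 of the 205 called genes placed there (20%). Of these 41, 23 were boosted and raised by PEG. The runs were picked from untreated libraries that also enter the difference of responses, so part of this share follows from the choice. The part of such segments in the response differences was not tested.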

How the data were processed

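The authors deposited the overexpression experiment as TPM per transcript and the knockout experiment as a further normalized signal per gene, which may be TPM or FPKM. The TPM unit was read from the values, because every library has the sum of TPM. The tools listed, per the submitters' processing notes and without their roles, are kallisto 0.51.1, sleuth 0.30.1, DESeq2 1.38.3 and HISAT2. The genome build is not given in the sources used here, and depth per library is unknown. The 107233 transcripts were summed to 100919 genes. Genes of at least 1 TPM in at least 3 of the 12 libraries were tested on log2(TPM + 1) in R 4.3.3 with limma 3.58.1 (with data.table, version 1.17.8), one mean per group, empirical Bayes with a mean trend, no replicate block, and Benjamini-Hochberg adjustment over all genes tested. The model was tested on simulated data. The line 1 and knockout comparisons were fitted in the same way on their own 12 libraries, the knockout values never against those of the overexpression experiment.

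A response is boosted where the line 2 response is called and larger in size than that of wild type, blunted where the wild type response is called and larger, and reversed where both are called with opposite signs. In each form and direction the 2 largest differences of at least 1 (log2) were named, with a mean of at least 5 TPM in the highest group and no overlap of line 2 and wild type in one condition or more, and apart from these the 2 largest for genes under 1 TPM in one genotype. The contrast, the lists and the settings were chosen with earlier results of these data known. Identifiers matched 0 of the 123214 genes of the RefSeq table (Da-Ae assembly). Replicate numbers did not pair the libraries: deviations of 18 same-numbered pairs correlated between -0.318 and 0.216, with 3 over 0.1. Alternatives varied the pseudocount, filter, scaling, model, libraries and summing to genes.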

Additional observations from a re-analysis of the deposited data

Results flagged for a closer look

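The PEG response differed between line 2 and wild type, by the test of the difference itself, in 210 genes. The named genes among them are flagged for the same reason, with the difference on the log2(TPM + 1) scale, line 2 minus wild type. Boosted responses were those of BnaA02G0412100ZS (4.07), BnaA02G0359700ZS (3.25), BnaC06G0022100ZS (-2.94) and BnaA03G0438900ZS (-2.88). Blunted responses were those of BnaC09G0253600ZS (-3.01), BnaA06G0385600ZS (-2.26), BnaA02G0338000ZS (1.93) and BnaA03G0393500ZS (1.5). The response was reversed in BnaC02G0295900ZS (-2.20), BnaA08G0022500ZS (-1.86), BnaA03G0153800ZS (2.14) and BnaA06G0161600ZS (1.91). Nearly silent in line 2 were BnaC01G0226400ZS (3.66) and BnaC03G0476400ZS (3.22). Listed at 0 in every wild type library with PEG or untreated were BnaA03G0111500ZS (5.68) and BnaA06G0278000ZS (4.15).

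A signal also appeared in libraries outside the contrast. The 46 called genes with a mean under 1 TPM in wild type summed to 332.3 and 255.4 TPM in the libraries labelled wild type with ABA, replicates 2 and 3, against 9.97 TPM in replicate 1 and 7.13 to 14.7 TPM in the 6 wild type libraries with PEG or untreated. In line 2 with ABA they summed to 603.8, 513.9 and 649.9 TPM. The 19 genes nearly silent in line 2 summed to 59.1 TPM and 138 TPM in the same libraries labelled wild type with ABA, replicates 2 and 3. These libraries enter no result here other than the fit over all 27 libraries.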

How the results depend on the processing

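The direction of every called gene that was still tested held in each fit on other settings or fewer libraries for which it was counted, while the number of calls did not. These fits reuse the libraries in which the genes were chosen, so the direction could hardly change. With a pseudocount of 0.1 there were 52 calls (37 boosted, 10 blunted, 5 reversed), 41 of them among the 210. With all 27 libraries of the experiment in the fit there were 737 (504, 186, 47), and with array quality weights 581 (415, 127, 39). Replicate numbers did not pair the libraries, and with replicate number as a block there were 113 calls (80 boosted, 24 blunted), 104 of them among the 210. Without a filter on low values 168 were called, 108 of them among the 210, with 7 reversed. A limit of 5 TPM left 18843 calls for PEG in line 2. Quantile normalization gave 218 calls, 140 higher and 78 lower, and set the median wild type response over all genes to 0.01 in place of 0.21. Settings added after the data were seen gave 72 calls (22 boosted) without wild type PEG replicates 1 and 2. Blunted calls outnumbered boosted ones there, unlike in the main fit. That fit leaves 1 wild type PEG library, so it cannot decide the balance of forms. The other such setting, without genes under 1 TPM in one genotype, gave 68 calls (53 boosted, 8 blunted, 7 reversed). Leaving out 1 library at a time gave 36 to 1074 calls, with 20 to 915 boosted, 10 to 111 blunted and 4 to 48 reversed. The cause was not tested.

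The difference between line 2 and line 1 was called in 9 genes without a filter, in 2 at 5 TPM, in 6 with all 27 libraries and in 1 to 3 with 1 library left out. For the lists from the other wild type, median responses in line 2 and wild type were 0.92 and 0.95 (raised) and -0.90 and -0.79 (lowered) at 1.5-fold, 2.72 and 2.60, and -1.49 and -1.49, at 4-fold, and 1.34 and 1.30, and -1.25 and -1.22, after quantile normalization. With 1 library left out they were 1.43 to 1.51 in line 2 and 1.36 to 1.56 in wild type for the raised list, and -1.17 to -1.10 and -1.13 to -0.95 for the lowered list. The named genes' differences stayed called in 254 repeats and lost the call in 75, with no change of sign. These repeats share most libraries with the main fit and include the fit with 1 wild type PEG library.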
